A study of Mus musculus with 8 samples.

Results

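The genes described here are the members of the mouse Hoxa, Hoxb, Hoxc and Hoxd clusters, with Hoxc13 left out. They were chosen by symbol alone: every entry named Hoxa, Hoxb, Hoxc or Hoxd with a number, the entry with the highest mean for each symbol, and no antisense transcript and no locus that joins several genes. This gave 38 genes of 22431 named genes in the tables of hair follicle stem cells and of Shh-CreER transit-amplifying cells. In the table of K15-CrePGR transit-amplifying cells, 23 of them had a locus of their own among 33365 named loci, and the other 15 were listed only in joined loci. The 38 genes comprise 11 of Hoxa, 10 of Hoxb, 8 of Hoxc and 9 of Hoxd.

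The study sequenced RNA of follicle cells from mixed-strain mice after loss of Bmpr1a, which encodes a receptor of the bone morphogenetic protein (BMP) pathway. Bulge stem cells came from K15-CrePGR mice at postnatal day 68, with 1 library labelled Het and 1 labelled cKO. Transit-amplifying cells (TACs), the dividing progenitors of the hair bulb, came from Shh-CreER mice at postnatal day 68 as 1 Het and 1 cKO library. TACs titled as hair bulb came from K15-CrePGR mice at postnatal day 80, as control libraries WT 52 and WT 57 and deleted libraries KO 64 and KO 84. The deleted genotype is Bmpr1a fl/fl in each case. The labels give a Cre line for every library, so the controls of a comparison carry the same line name as the deleted group. K15-CrePGR uses the Krt15 promoter, which is active in bulge cells, to drive a hormone-inducible Cre, and the K15-CrePGR TACs are described as derived from such cells. Shh-CreER makes an inducible Cre in cells that express Shh, a subset of the hair matrix. The labels do not say how cells were isolated or whether animals were pooled. They also do not say whether WT 52 and WT 57, or KO 64 and KO 84, were separate animals. The p-values measure the spread between these samples. WT 52 and WT 57 differed in sex-linked transcripts, as given below, so their spread was not technical alone. The spread between KO 64 and KO 84 may be technical.

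Hox genes encode homeodomain transcription factors that lie in 4 clusters and are expressed in nested domains along the body axis, with genes at one end of a cluster active toward the head and genes at the other end toward the tail. Genes of equal number in different clusters are paralogs. In skin, Hox expression is known as a record of body position in dermal fibroblasts, and Hoxc13, which is not a member here, drives hair keratin genes in the follicle. For description the members were divided by paralog number into 12 anterior genes (numbers 1 to 4), 11 central genes (5 to 8) and 15 posterior genes (9 to 13).

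The part of the homeobox that encodes the later part of the DNA-contacting recognition helix shows how alike the members are, and is printed for the genes whose values are given in most detail below. Each stretch has 33 bases, was found by translating the GENCODE M21 transcript, and is written 5′ to 3′. Capitals mark bases that differ from Hoxa7. Hoxa6 differed from Hoxa7 at 2 bases, Hoxd4 at 4, Hoxc8 at 5, Hoxd11 at 7, Hoxd9 at 9 and Hoxd10 at 10.
Hoxa7: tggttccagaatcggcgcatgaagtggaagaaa
Hoxa6: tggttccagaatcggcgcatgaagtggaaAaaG
Hoxc8: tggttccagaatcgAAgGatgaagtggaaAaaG
Hoxd4: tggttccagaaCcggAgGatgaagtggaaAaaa
Hoxd9: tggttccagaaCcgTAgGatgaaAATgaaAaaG
Hoxd10: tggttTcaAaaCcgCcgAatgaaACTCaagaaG
Hoxd11: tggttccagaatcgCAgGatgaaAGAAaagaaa
Although these stretches are alike, the transcripts as a whole can be told apart by short reads. Of the 38 members, 4 shared any run of 50 bases with another member, and the highest share of a transcript's runs that recurred elsewhere was 0.364%. Neighbouring Hox genes overlap each other and antisense transcripts, and any use of strand in the counting was not given in the sources used here, so reads of such partners could not be separated.

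Promoters are printed for the genes counted below as at least 2-fold from their control in the stem cells or the Shh-CreER TACs that had an entry, and for Hoxd10, which lies between Hoxd9 and Hoxd11. Of the 38 members, 22 matched the RefSeq promoter table of GRCm38.p6, with 24 promoters of 300 bases, from 250 before to 50 after the transcription start. Capitals mark matches on either strand to GGCGCC, a GC-rich sequence known to be bound by BMP-activated Smad proteins, to CAGAC, a Smad box, or to TAATTA, a core recognised by many homeodomains. The expression files use another build (mm9), so these coordinates are not those of the files.
Hoxa6, chr6:52208623-52208922, - strand: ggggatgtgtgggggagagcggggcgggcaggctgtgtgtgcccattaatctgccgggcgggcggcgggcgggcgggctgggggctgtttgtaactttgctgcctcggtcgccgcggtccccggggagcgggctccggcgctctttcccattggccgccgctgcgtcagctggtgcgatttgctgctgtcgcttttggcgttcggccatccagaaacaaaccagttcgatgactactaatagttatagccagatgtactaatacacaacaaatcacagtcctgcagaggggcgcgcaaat
Hoxa7, chr6:52218524-52218823, - strand: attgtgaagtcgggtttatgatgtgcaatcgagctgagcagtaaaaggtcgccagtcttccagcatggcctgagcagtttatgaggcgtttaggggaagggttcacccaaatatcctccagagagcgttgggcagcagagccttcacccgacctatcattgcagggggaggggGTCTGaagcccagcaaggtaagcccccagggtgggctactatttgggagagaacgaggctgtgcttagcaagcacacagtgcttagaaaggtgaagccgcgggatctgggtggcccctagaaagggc
Hoxd4, chr2:74721728-74722027, + strand: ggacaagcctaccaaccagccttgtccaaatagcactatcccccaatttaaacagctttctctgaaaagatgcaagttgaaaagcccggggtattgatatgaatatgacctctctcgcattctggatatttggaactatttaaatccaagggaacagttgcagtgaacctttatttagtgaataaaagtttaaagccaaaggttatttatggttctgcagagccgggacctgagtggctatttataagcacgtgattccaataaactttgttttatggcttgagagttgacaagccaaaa
Hoxd9, chr2:74697513-74697812, + strand: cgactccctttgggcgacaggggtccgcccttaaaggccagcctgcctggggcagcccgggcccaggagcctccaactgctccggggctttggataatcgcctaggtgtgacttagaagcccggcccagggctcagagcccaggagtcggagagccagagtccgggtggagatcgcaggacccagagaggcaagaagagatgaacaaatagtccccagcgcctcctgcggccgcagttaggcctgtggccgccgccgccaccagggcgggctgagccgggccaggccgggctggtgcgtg
Hoxd10, chr2:74691641-74691940, + strand: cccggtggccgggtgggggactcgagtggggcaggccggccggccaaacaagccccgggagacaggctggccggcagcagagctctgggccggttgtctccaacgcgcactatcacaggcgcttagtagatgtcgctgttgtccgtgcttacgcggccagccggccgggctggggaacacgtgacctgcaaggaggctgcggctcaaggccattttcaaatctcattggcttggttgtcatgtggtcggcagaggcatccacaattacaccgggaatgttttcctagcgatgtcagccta
Hoxd11, chr2:74682073-74682372, + strand: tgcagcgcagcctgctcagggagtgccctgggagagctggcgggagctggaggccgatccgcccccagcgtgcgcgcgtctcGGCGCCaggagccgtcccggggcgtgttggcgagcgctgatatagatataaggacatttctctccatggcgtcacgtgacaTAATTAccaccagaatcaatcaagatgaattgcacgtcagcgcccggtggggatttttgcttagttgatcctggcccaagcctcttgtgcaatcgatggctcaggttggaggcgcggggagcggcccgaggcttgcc
GGCGCC occurred in 5 of the 24 Hox promoters and in 11.9% of all 32851 promoters in the table. CAGAC occurred in 9 of 24 against 49.6% of all, and TAATTA in 2 of 24 against 5.29% of all. The Hox promoters held a median of 14.5 CpG dinucleotides, against 7 over all promoters. Both TAATTA matches were in promoters of Hoxd11, of which 1 of 2 is printed. Among the printed promoters, that of Hoxd11 held GGCGCC and TAATTA and that of Hoxa7 held CAGAC, and the other 4 held no match. These are matches of letters in a fixed window and not sites of binding.

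Before the Hox values, 3 features of the libraries bear on how they can be read. Bmpr1a itself was listed at 31.8 FPKM (a level per transcript length and sequencing depth) in the Het and 39.3 in the cKO stem cells, and at 46.0 and 40.4 FPKM in the Het and cKO Shh-CreER TACs. In the K15-CrePGR TACs it was 39.7 ± 3.604 FPKM (SD, n = 2) in WT and 39.0 ± 1.36 (SD, n = 2) in KO (limma adjusted p = 0.948), so a value for the whole gene did not separate deleted from control libraries, and the deleted exons were not given in the sources used here. Xist, transcribed from the inactive X, was 68.9 FPKM in the Het and 3.98 in the cKO stem cells, and the Y-linked Ddx3y was 0.255 and 23.2 FPKM. Sex and genotype therefore cannot be told apart in the stem cell pair. Among the K15-CrePGR libraries, WT 52 had 26.4 FPKM of Ddx3y, against at most 0.753 in the others. Its Xist was 3.26 FPKM, against 175 in WT 57, 210 in KO 64 and 226 in KO 84. Sex therefore differed within the WT group. The 7 bulge stem cell markers summed to 8728 FPKM in the Het and 3640 in the cKO stem cells and to between 128 and 627 in the TAC libraries. The members did not move together in the stem cells: Krt15 (7834 and 3075 FPKM in Het and cKO) and Cd34 (556 and 147) were at least 2-fold lower in cKO, and Sox9 (59.4 and 119.8) and Tcf7l1 (8.47 and 26.2) at least 2-fold higher. The 7 hair matrix markers summed to 28.1 and 36.9 FPKM in the stem cells and to between 364 and 642 in the TACs. KO 64 stood apart in the sum of dermal markers: 11 dermal papilla and fibroblast markers summed to 1583 FPKM there, against 430 in WT 52, 457 in WT 57 and 514 in KO 84. Of these sums, Dcn made up 551 FPKM in KO 64, 284 in WT 52, 382 in WT 57 and 291 in KO 84. KO 84 was also above both WT libraries for Wif1, Col1a1, Col1a2, Col3a1 (56.4 FPKM against 31.3 and 16.7), Pdgfra and Lum. It was not above both for Sox2, Corin, Alpl, Rspo3 and Dcn. The estimated depths of the libraries were 55.6 and 47.5 megareads for Het and cKO stem cells and 28.7 megareads for each Shh-CreER library. In bulk RNA of this kind, fewer cells of a type and less RNA per cell cannot be told apart.

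Nearly all central Hox genes were expressed in every library, whereas most posterior genes were near or at 0. All 11 central genes reached 1 FPKM in both stem cell libraries, 10 of 11 did so in both Shh-CreER libraries, and all 5 with an own locus did so in each K15-CrePGR library. Of the 15 posterior genes, 1 reached 1 FPKM in each stem cell library (Hoxb9), 2 in the Shh-CreER Het library (Hoxb9 and Hoxc9) and 5 in the cKO library (Hoxb9, Hoxc9, Hoxd9, Hoxd10 and Hoxd11). Among the 10 posterior genes with an own locus, Hoxd9 alone reached it in the K15-CrePGR TACs, in KO 64. The 12 anterior genes lay between, with 10 at or above 1 FPKM in Het and 8 in cKO stem cells and 6 in each Shh-CreER library.

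Over all members, 26 reached 1 FPKM in at least 1 library. The other 12 were Hoxa9, Hoxa10, Hoxa11, Hoxa13, Hoxb1, Hoxb13, Hoxc10, Hoxc11, Hoxc12, Hoxd1, Hoxd12 and Hoxd13, with a highest value of 0.929 FPKM, that of Hoxa10 in KO 64. The order of the members was much the same in the controls of the 3 tables. Spearman's rho was 0.83 between Het stem cells and Het Shh-CreER TACs over 38 genes, 0.957 between Het stem cells and the K15-CrePGR WT mean over 23 genes, and 0.946 between the TAC controls over 23 genes. These are descriptions across genes, which are not replicates. The stem cell and Shh-CreER values share transcript lengths and annotation. The K15-CrePGR table measures the same genes in loci of its own.

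**Figure D1:**
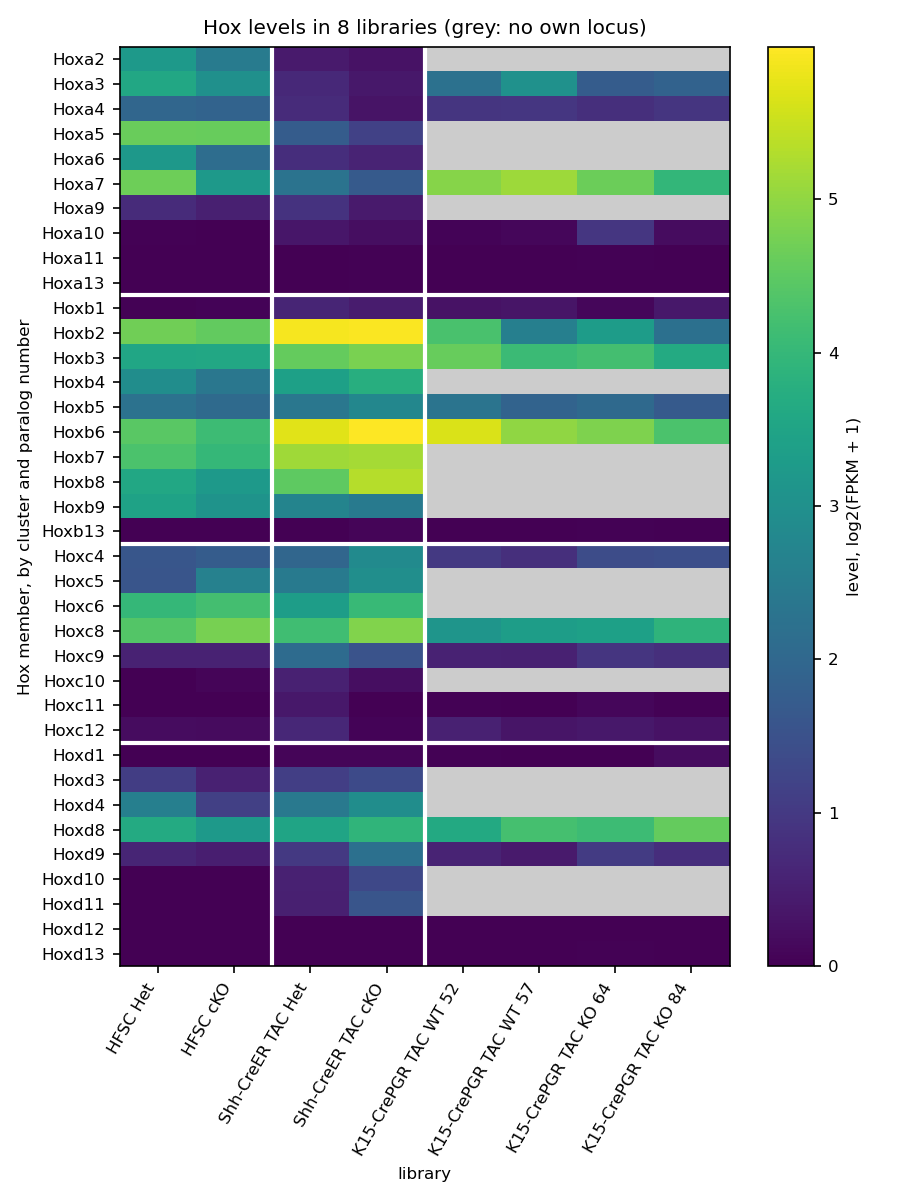
Levels of Hox members (rows, ordered by cluster and paralog number) in each of the 8 libraries (columns), with colour giving log2(FPKM + 1) as deposited; grey cells are genes without a locus of their own in the K15-CrePGR table. Green and yellow mark high levels and dark purple marks 0, with most posterior genes dark and the Hoxa rows darker in the Shh-CreER libraries than in the stem cells.

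The clusters differed in which control cells held most of their RNA. Over the 23 genes with a locus in all 3 tables, summed Hoxa was 39.6 FPKM in Het stem cells, 5.59 in Het Shh-CreER TACs, and 33.7 and 42.0 in WT 52 and WT 57. Summed Hoxb was 60.7 FPKM in Het stem cells, 139 in Het Shh-CreER TACs, and 94.96 and 54.6 in WT 52 and WT 57. The tables were normalised separately, so these levels stand side by side without a test. In these sums Hoxa was lowest in the Shh-CreER TACs and Hoxb was highest there, while the 2 K15-CrePGR controls differed from each other by more in Hoxb than in Hoxa. Summed Hoxc was 22.7, 23.8, 9.64 and 10.6 FPKM in the same order of libraries. Summed Hoxd was 12.1, 11.4, 11.99 and 18.1 FPKM, the narrowest span of the 4 clusters in these libraries.

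**Figure D2:**
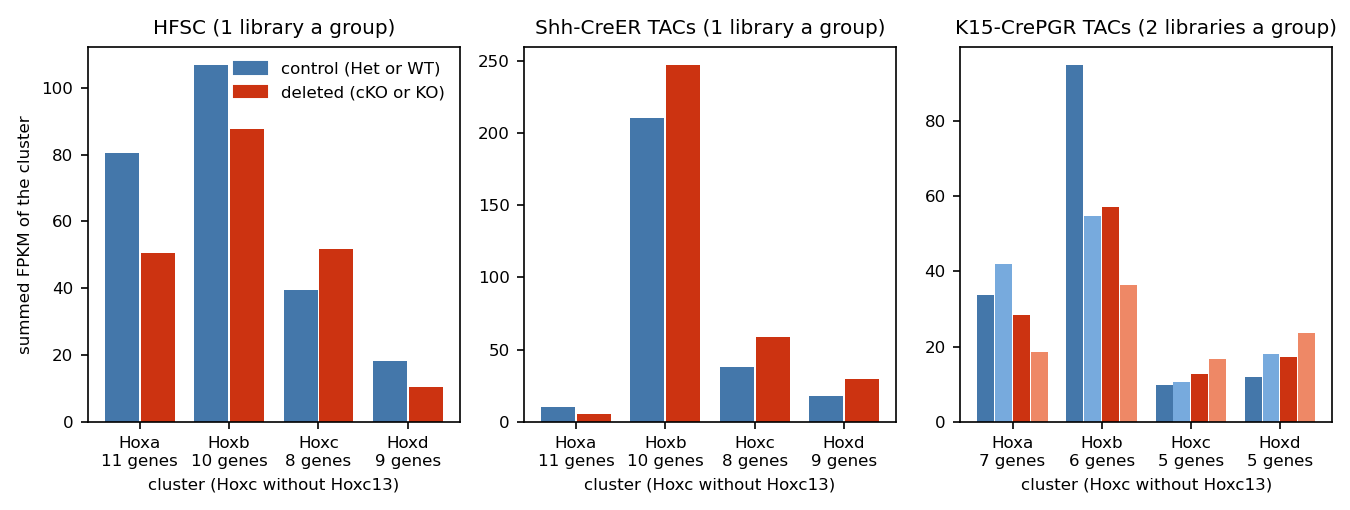
Summed FPKM of the Hoxa, Hoxb, Hoxc and Hoxd members in control and deleted libraries of each table; each bar is 1 library, and in the K15-CrePGR panel the lighter bar is the second library of its group. In the stem cells and Shh-CreER TACs the Hoxa bar is lower and the Hoxc bar higher in the deleted than in the control library, and the K15-CrePGR panel sums only the genes with a locus of their own.

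In the stem cells, 9 of 11 Hoxa and 7 of 10 Hoxb genes were lower in the cKO than in the Het library. Of 9 Hoxd genes 4 were lower, 1 was higher and 4 were listed at 0 in both. Of 8 Hoxc genes 6 were higher, or 5 under median scaling or quantile normalisation. These counts include genes with few estimated reads in Het and cKO, such as Hoxa10 (3 and 0) and Hoxc10 (1 and 5). The question is which Hox genes differ when bulge stem cells lose Bmpr1a. With 1 library per genotype there was no replicate check and no test, so a gene was filtered on a mean of 1 FPKM or more and counted when log2(FPKM + 1) differed by at least 1, a 2-fold difference on that scale, which understates the difference of low genes. Of 38 members, 20 passed the filter. Of these, 3 were at least 2-fold lower in cKO, against 4.6% of all 12205 genes, and 1 was at least 2-fold higher, against 5.92%. Over the 20 members the median log2 difference was -0.34, with 15 lower and 5 higher. Over all genes that passed the filter the median was 0.05, with 45.8% lower and 54.2% higher.

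Hoxa showed the most uneven pattern. Hoxa7, a central gene, was 24.6 FPKM in Het and 8.50 in cKO, a log2 difference of -1.43. About 2752 and 811 reads lay behind these values, which gives a ratio of 0.345 with a 95% counting interval of 0.319 to 0.373 (Clopper-Pearson on estimated reads, covering counting error only). Its neighbour Hoxa6 was 8.21 and 3.404 FPKM, a log2 difference of -1.06. The adjacent Hoxa5, a gene required for lung development, was by contrast 23.7 and 23.1 FPKM, and the counting interval of its ratio (0.919 to 1.03) includes no difference. Hoxa4 was likewise close in both libraries, at 2.91 and 2.78 FPKM. Toward the anterior end, Hoxa3, which patterns the thymus and parathyroid, was 11.0 FPKM in Het and 7.03 in cKO, and Hoxa2, which patterns the second branchial arch, was 8.24 and 4.63 FPKM. Neither reached the 2-fold mark. Thus 2 neighbouring central genes were at least 2-fold lower, 2 genes beside them were nearly equal, and Hoxa2 and Hoxa3 were lower to a lesser degree. Summed Hoxa was 80.4 FPKM in Het and 50.7 in cKO.

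Hoxb, the most abundant cluster in the stem cells, differed less. Hoxb2, a hindbrain patterning gene, was 25.0 FPKM in Het and 22.3 in cKO, and Hoxb3 was 10.7 and 11.0 FPKM. Hoxb4, known for expanding blood stem cells, was 6.60 and 4.23 FPKM, the lowest cKO to Het ratio (0.64) among the 8 Hoxb genes that passed the filter. The central genes lay closer together: Hoxb5 was 3.78 and 3.18 FPKM, Hoxb6 was 21.2 and 16.3, Hoxb7 was 18.8 and 14.9, and Hoxb8, whose loss causes excessive grooming in mice, was 11.0 and 8.29. Hoxb9, a thoracic patterning gene and the sole posterior gene above 1 FPKM in these cells, was 9.94 and 7.50 FPKM. None of the Hoxb genes reached the 2-fold mark in the stem cell pair, and their sum was 106.9 FPKM in Het and 87.8 in cKO.

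Hoxc stood on the other side. Hoxc5 was 2.01 FPKM in Het and 5.16 in cKO, a log2 difference of 1.03 and a ratio of 2.57 (counting interval 2.25 to 2.94). Hoxc8, which patterns the thorax, was 20.0 and 26.3 FPKM, and in the cKO it was the most abundant member. Hoxc6 was 14.9 and 17.4 FPKM, and Hoxc4 was 2.06 and 2.35 FPKM with a counting interval that includes equality (0.943 to 1.38). Hoxc9 was 0.482 and 0.491 FPKM, and its direction flipped under median scaling and under quantile normalisation. The sum of the 8 Hoxc members was 39.6 FPKM in Het and 51.9 in cKO. Hoxc13, left out of these sums, was 9.95 and 28.7 FPKM in the same libraries.

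Hoxd held the lowest cKO to Het ratio among members that passed the filter in these cells. Hoxd4, a gene of the hindbrain and neck vertebrae, was 5.02 FPKM in Het and 1.18 in cKO, a log2 difference of -1.46 and a ratio of 0.236 (0.196 to 0.283). Hoxd3, its neighbour, was 1.14 and 0.460 FPKM and did not pass the filter. Hoxd8 was 11.6 and 8.29 FPKM, a smaller difference. The posterior Hoxd9 was 0.540 and 0.421 FPKM, and Hoxd10 and Hoxd11 were listed at 0 in both libraries. The sum over Hoxd was 18.3 FPKM in Het and 10.4 in cKO.

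Other cells differed between these 2 libraries as well. The 5 sebaceous markers summed to 184.5 FPKM in Het and 42.0 in cKO, and the 6 immune markers to 303 and 122. The 11 dermal markers summed to 23.6 and 24.2 FPKM, and 4 endothelial markers to 0.2002 and 0.340. Of 7 melanocyte markers 5 passed the filter, with 4 at least 2-fold higher in cKO, such as Dct (2.59 and 21.2 FPKM) and Pmel (1.62 and 8.24), and 1 lower, Mitf (26.2 and 6.06). The 3 measured isthmus and upper follicle markers summed to 594 and 774 FPKM. The part of these other cells and of sex in the Hox differences was not tested.

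**Figure D3:**
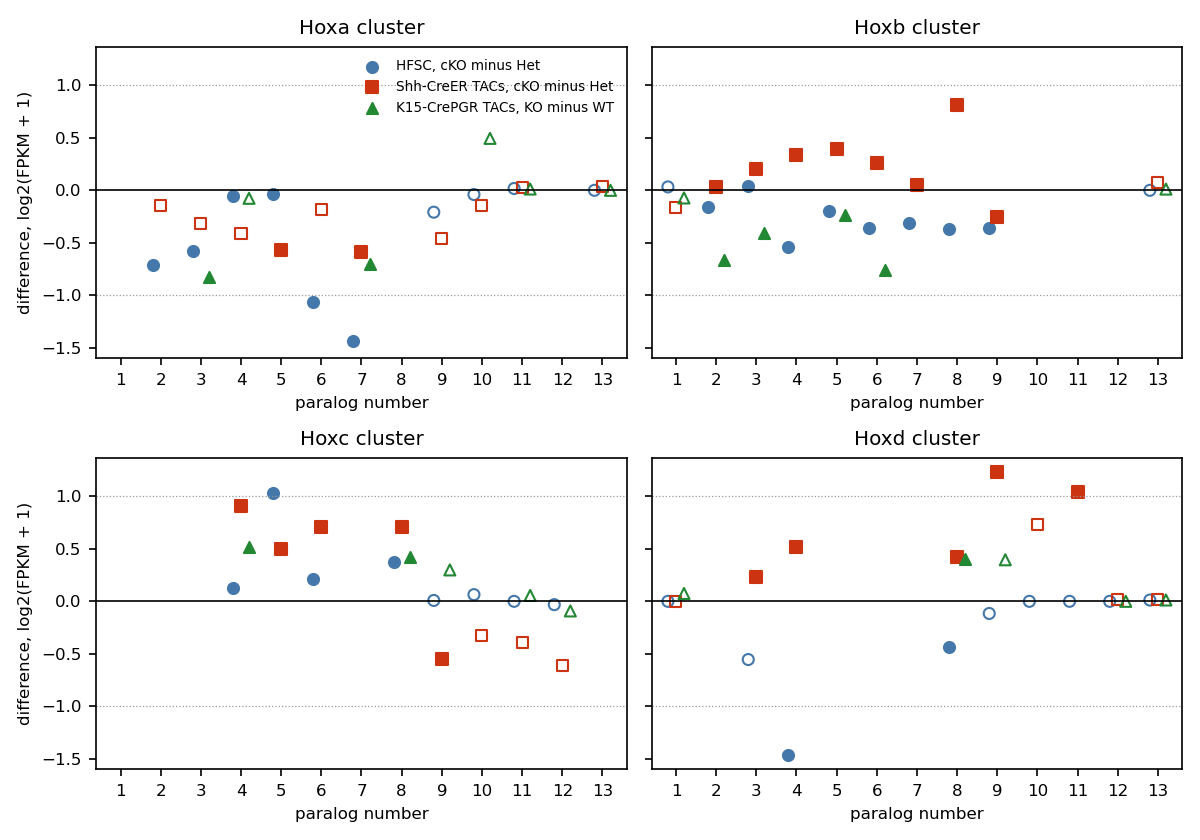
Difference in log2(FPKM + 1), deleted minus control, for members along each cluster, for the 3 tables; filled points passed the filter (mean of 1 FPKM or more), open points did not, and dotted lines mark a difference of 1 in either direction. Hoxa6, Hoxa7 and Hoxd4 lie below the lower line in the stem cells, and Hoxd9 and Hoxd11 lie above the upper line in the Shh-CreER TACs.

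In the Shh-CreER TACs, most Hoxb and Hoxd genes and the anterior and central Hoxc genes were higher in cKO than in Het, while Hoxa genes and the posterior Hoxc genes were lower. The question is the same, with the deletion in the dividing progenitors. Again there was 1 library per genotype and no test. Of 38 members 20 passed the filter, and 2 of them were at least 2-fold higher in cKO, against 2.67% of all 12296 genes. No member was at least 2-fold lower, against 2.77% of all genes. The median log2 difference of the 20 members was 0.36, with 16 higher and 4 lower. Over all genes that passed the filter it was 0.01, with 51.2% higher and 48.8% lower.

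The genes past the 2-fold mark were posterior Hoxd genes. Hoxd9, which acts with its paralogs in the mammary gland, was 0.980 FPKM in Het and 3.65 in cKO, about 60 and 224 reads and a ratio of 3.72 (counting interval 2.79 to 5.04). Hoxd11, which with Hoxa11 shapes the forelimb and kidney, was 0.445 and 1.98 FPKM, about 14 and 63 reads and a ratio of 4.45 (2.49 to 8.68). Both reached the filter because of their cKO value alone, so a difference in that direction was built into their selection. Hoxd10, a gene of lumbar motor neurons that lies between them, was 0.469 and 1.44 FPKM with a ratio of 3.07 (1.95 to 5.17), and its mean did not pass the filter. The anterior and central genes of the cluster were higher by smaller ratios: Hoxd3 was 1.18 and 1.56 FPKM, Hoxd4 was 4.38 and 6.70, and Hoxd8 was 10.3 and 14.2. At the end of the cluster, Hoxd12 and Hoxd13 were each listed at 0 in Het and came to about 1 read in cKO. Summed Hoxd was 17.8 FPKM in Het and 29.6 in cKO.

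Hoxc divided along its length. Hoxc4 was 2.92 FPKM in Het and 6.34 in cKO, a ratio of 2.17 (1.80 to 2.62) and a log2 difference of 0.90 that stayed under the 2-fold mark on the log2(FPKM + 1) scale. Hoxc5 was 4.50 and 6.76 FPKM, Hoxc6 was 9.12 and 15.5, and Hoxc8 was 16.7 and 27.9. All 4 genes from Hoxc4 to Hoxc8 were thus higher in cKO. From Hoxc9 on, the direction was the opposite: Hoxc9, which specifies thoracic motor neurons, was 3.25 FPKM in Het and 1.91 in cKO, a ratio of 0.586 (0.469 to 0.732). Hoxc10 was 0.456 and 0.164 FPKM, about 25 and 9 reads. Hoxc11 was 0.309 FPKM in Het, about 18 reads, and was listed at 0 in cKO. Hoxc12, the member next to Hoxc13, was 0.588 and 0.0419 FPKM, about 17 reads and 1 read, with a ratio of 0.0712 and a counting interval of 0.00140 to 0.375. Hoxc13, which lies beyond Hoxc12 at the end of the cluster, was 152 FPKM in Het and 14.9 in cKO. Hoxc10, Hoxc11 and Hoxc12 were under the filter in both libraries, so their differences rest on few reads.

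Hoxb was the most abundant cluster in these TACs. Hoxb2 was 59.6 FPKM in Het and 60.8 in cKO, and its direction flipped under median scaling. Hoxb8 had the largest ratio of the Hoxb genes that passed the filter, at 21.8 and 39.0 FPKM (1.79, counting interval 1.69 to 1.90). Hoxb6 was 52.1 and 62.6 FPKM, Hoxb7 was 34.0 and 35.3, Hoxb3 was 22.8 and 26.4, Hoxb4 was 9.67 and 12.4, and Hoxb5 was 4.20 and 5.84. The posterior Hoxb9 went the other way, at 5.54 and 4.49 FPKM. None reached the 2-fold mark, and the cluster summed to 210.2 FPKM in Het and 247 in cKO.

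Hoxa was low in the Shh-CreER TACs, and lower in cKO. Hoxa7 was 3.87 FPKM in Het and 2.23 in cKO, a ratio of 0.577 (0.461 to 0.720), and Hoxa5 was 2.33 and 1.24 FPKM, a ratio of 0.535 (0.391 to 0.725). These were the Hoxa genes that passed the filter. Hoxa2, Hoxa3, Hoxa4 and Hoxa6 were each under 1 FPKM in both libraries, for example 0.621 and 0.301 FPKM for Hoxa3 and 0.671 and 0.254 for Hoxa4. Of the 11 Hoxa genes 9 were lower in cKO, and the remaining 2, Hoxa11 and Hoxa13, were listed at 0 in Het and came to about 1 read in cKO. Over all genes that passed the filter, 48.8% were lower. The 9 include genes with few estimated reads, such as Hoxa6 (18 and 13) and Hoxa10 (16 and 9). The counting intervals of these examples include equality (0.325 to 1.56 and 0.219 to 1.35). Summed Hoxa was 9.84 FPKM in Het and 5.44 in cKO.

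Markers of other cells moved between these libraries too. The 5 skeletal muscle markers summed to 110 FPKM in Het and 18.8 in cKO, the 3 measured isthmus and upper follicle markers to 75.1 and 703, and the 5 sebaceous markers to 13.3 and 49.0. The 7 melanocyte markers summed to 95.8 and 25.6 FPKM, led by Dct at 82.9 and 15.8, and the 4 endothelial markers to 15.6 and 26.8, each of them higher in cKO. The 11 dermal markers summed to 1039 and 1407 FPKM, against 23.6 in the Het stem cells, so both libraries held dermal transcripts. The 7 hair matrix markers summed to 642 and 518 FPKM. Their part in the Hox differences was not tested.

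**Figure D4:**
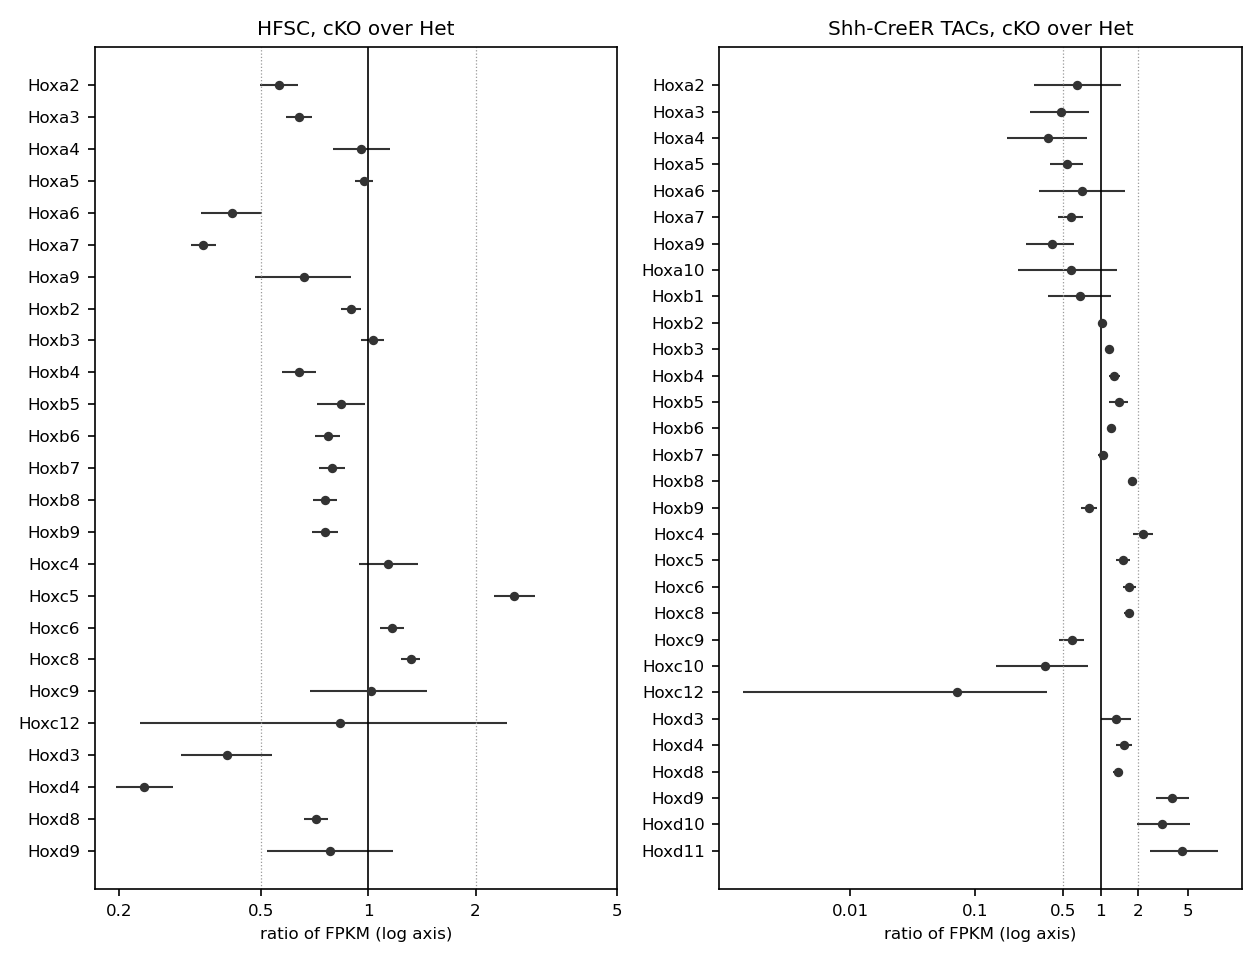
Ratio of FPKM in cKO to Het (horizontal axis, log scale) for members with at least 10 estimated reads in total and reads in both libraries, in the stem cells and the Shh-CreER TACs; bars are 95% counting intervals, which hold no variation between animals. Posterior Hoxd genes lie to the right of 1 and posterior Hoxc genes to the left of 1 in the TACs, with the widest bar for Hoxc12; Hoxc11 is not drawn because it had no reads in the cKO library.

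The stem cell and Shh-CreER results can be set beside each other, although they come from different Cre lines and separately normalised tables. Hoxd4 was lower in the cKO stem cells (log2 difference -1.46) and higher in the cKO TACs (0.52). Hoxa7 was lower in both (-1.43 and -0.59), and Hoxc8 was higher in both (0.38 and 0.71). With 1 library per group, the difference between cell types in these values was not tested.

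In the K15-CrePGR TACs, no Hox member passed the test between KO and WT. Here the comparison had 2 libraries per group and was tested with limma on log2(FPKM + 1) over the 13565 named loci whose mean reached 1 FPKM. Of 23 members with an own locus, 9 passed the filter. Of these 9, limma called 0 higher, against 0.0369% of all loci (5 loci), and 0 lower, against 0.0295% (4 loci). At an unadjusted p under 0.05 it called 0 of the 9 members, against 17.4% of all loci. Both KO libraries were above both WT libraries for 2 members, against 26.8% of all loci, and below both for 3 members, against 27.5%. The median log2 difference was -0.41 over the 9 members and -0.03 over all loci.

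The 3 members whose KO values lay below both WT values were Hoxa3, Hoxa7 and Hoxb6. Hoxa7 was 28.9 FPKM in WT 52 and 33.6 in WT 57, and 24.0 in KO 64 and 14.7 in KO 84, so the groups did not overlap. Its log2 difference was -0.70 (SE 0.27, limma adjusted p = 0.297). Hoxb6 was 49.2 and 30.8 FPKM in WT 52 and WT 57, and 27.5 and 18.6 in KO 64 and KO 84, with a log2 difference of -0.76 (SE 0.32, limma adjusted p = 0.317). Hoxa3 was 3.74 and 7.24 FPKM in the WT libraries and 2.35 and 2.69 in the KO libraries, with a log2 difference of -0.83 (SE 0.33, limma adjusted p = 0.302). In Hoxb6 and Hoxa3 the WT libraries differed from each other by more than the nearest WT and KO values did. Hoxa3 was also part of a locus joined with Hoxa2. That locus was 2.65 and 2.78 FPKM in WT 52 and WT 57 and 3.13 and 1.23 in KO 64 and KO 84, so its groups overlapped.

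Hoxc4 and Hoxc8 lay above WT in both KO libraries. Hoxc8 was 7.68 and 9.10 FPKM in WT 52 and WT 57, and 9.67 and 13.8 in KO 64 and KO 84, a log2 difference of 0.43 (SE 0.22, limma adjusted p = 0.392). Hoxc4 was 0.997 and 0.744 FPKM in WT and 1.63 and 1.73 in KO, a log2 difference of 0.52 (SE 0.29, limma adjusted p = 0.406), and it passed the filter only through the KO libraries. For Hoxc8 the distance between KO 64 and WT 57 was smaller than the distance between the WT libraries.

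In the remaining 4 tested members the groups overlapped. Hoxb2 was 18.2 FPKM in WT 52, 5.02 in WT 57, 8.99 in KO 64 and 3.63 in KO 84. Its log2 difference was -0.66 (SE 0.70, limma adjusted p = 0.635), and without WT 52 it turned to 0.17. Hoxb3 was 23.3 and 15.8 FPKM in WT and 17.4 and 11.6 in KO (limma adjusted p = 0.487), Hoxb5 was 3.95 and 2.74 in WT and 3.16 and 2.22 in KO (limma adjusted p = 0.671), and Hoxd8 was 11.5 and 17.8 in WT and 16.2 and 22.7 in KO (limma adjusted p = 0.493). In all of Hoxb2, Hoxb3, Hoxb5 and Hoxb6, WT 52 had the highest and KO 84 the lowest value.

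**Figure D5:**
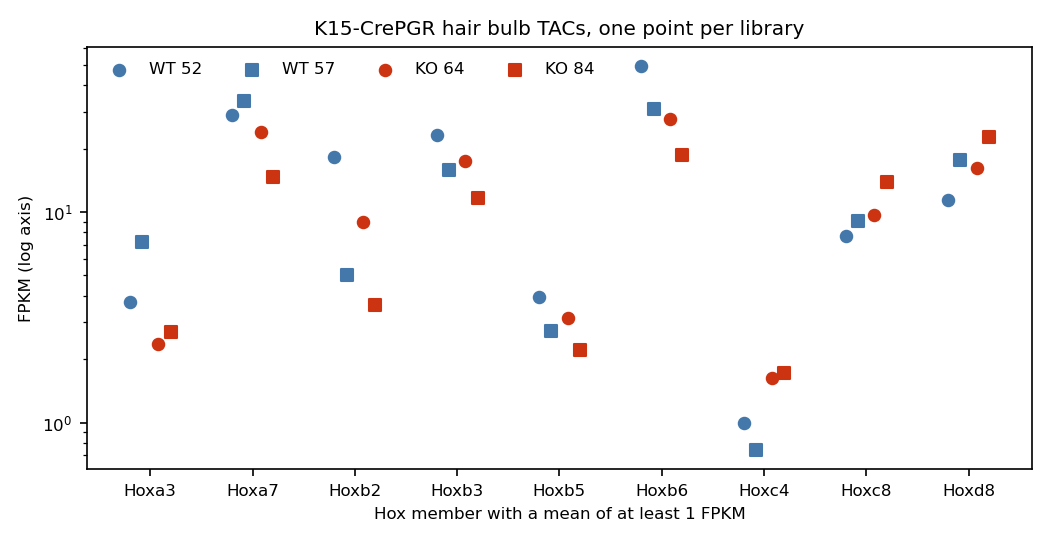
FPKM of the 9 tested Hox members in WT 52, WT 57, KO 64 and KO 84 (each point is 1 library, log scale). KO points lie below both WT points for Hoxa3, Hoxa7 and Hoxb6 and above both for Hoxc4 and Hoxc8, and the groups overlap for the other 4 genes.

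Members under the filter in this table were given as values only. Hoxd9 was 0.507 and 0.359 FPKM in WT 52 and WT 57, and 1.06 and 0.719 in KO 64 and KO 84. Hoxc9 was 0.488 and 0.470 FPKM in WT and 0.899 and 0.744 in KO, the opposite order to its values in the Shh-CreER TACs. Hoxc12 was 0.455 and 0.261 FPKM in WT and 0.312 and 0.233 in KO, so its groups overlapped. Hoxa4 was 0.897 and 0.944 FPKM in WT and 0.761 and 0.885 in KO. Hoxc13 was 144 and 83.6 FPKM in WT and 89.9 and 45.0 in KO (log2 difference -0.78, limma adjusted p = 0.422). KO 64, with the highest dermal marker sum, also had 278 FPKM over the measured immune markers, against 26.5 and 10.001 in WT 52 and WT 57 and 52.4 in KO 84. Sums of bulge, isthmus, sebaceous, dermal, immune, melanocyte and endothelial markers were all higher in both KO libraries than in both WT libraries. The 7 melanocyte markers summed to 27.8 and 25.6 FPKM in WT and 121 and 39.8 in KO. The 4 endothelial markers summed to 2.43 and 0.941 FPKM in WT and 23.2 and 2.48 in KO. The 3 measured skeletal muscle markers overlapped, at 12.3 and 8.85 FPKM in WT and 11.2 and 9.26 in KO. The 7 bulge markers summed to 128 and 178 FPKM in WT 52 and WT 57 and to 503 and 627 in KO 64 and KO 84. The 3 measured isthmus markers summed to 29.1 and 24.7 FPKM in WT and 257 and 827 in KO, and the 4 measured sebaceous markers to 0.994 and 0.431 in WT and 15.8 and 6.01 in KO. After adjustment limma called 0 markers of any of these lists. At an unadjusted p under 0.05 it called 5 of 6 bulge, 3 of 3 isthmus and 2 of 2 sebaceous markers tested, against 17.4% of all loci. It also called 3 of 10 dermal, 2 of 3 immune, 2 of 6 melanocyte, 0 of 3 endothelial and 0 of 3 muscle markers tested. Of 7 hair matrix markers it called 6 at that cut. Among these, Shh and Edar were higher in KO, and Msx2, Lef1, Dlx3 and Foxn1 were lower. The part of all these markers in the Hox values was not tested. Without KO 64 no member passed the test either.

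Summed by cluster over the genes with an own locus, the KO means were lower than the WT means for Hoxa and Hoxb and higher for Hoxc and Hoxd. Hoxa summed to 33.7 and 42.0 FPKM in WT 52 and WT 57 and to 28.3 and 18.6 in KO 64 and KO 84. Hoxb summed to 94.96 and 54.6 FPKM in WT and 57.2 and 36.3 in KO, and these overlapped. Hoxc summed to 9.64 and 10.6 FPKM in WT and 12.6 and 16.6 in KO. Hoxd summed to 11.99 and 18.1 FPKM in WT and 17.2 and 23.5 in KO, which overlapped, and this sum leaves out the joined locus of Hoxd3 and Hoxd4, at 4.75 and 5.49 FPKM in WT and 3.18 and 4.62 in KO. The sums are led by Hoxa7, Hoxb6, Hoxc8 and Hoxd8, and were not tested.

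Coordinates are listed for the K15-CrePGR table in mm9, where a locus can be a bundle that several genes share. Hoxa3, Hoxa4 and Hoxa7 all carried chr6:52112349-52171853, and Hoxb2 and Hoxb3 shared chr11:96184429-96217003. Hoxb5 and Hoxb6 shared chr11:96152337-96168224, and Hoxc8 and Hoxc9 shared chr15:102797226-102847860. Hoxc4 had chr15:102849366-102867293, Hoxd9 had chr2:74535736-74538265 and Hoxd8 had chr2:74541053-74586331. The locus joining Hoxd3 and Hoxd4 carried the coordinates of Hoxd8. Those of Hoxa7 were also carried by the loci joining Hoxa5 and Hoxa6 and joining Hoxa2 and Hoxa3. Those of Hoxc8 were also carried by the locus joining Gm20398, Hoxc10, Hoxc5 and Hoxc6. Genes in 1 bundle were quantified from overlapping models, so their values are uncertain where the models overlap.

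Hox proteins bind DNA with TALE homeodomain partners of the Pbx, Meis and Pknox families, and the list of these cofactors had 9 genes. In the stem cells 7 of 9 passed the filter, of which 0 were at least 2-fold higher and 1 was lower: Pknox2 at 6.98 FPKM in Het and 1.42 in cKO. In the Shh-CreER TACs 7 passed, 1 was higher (Pbx3, at 4.19 and 10.7 FPKM) and 0 were lower. Their median log2 difference was -0.16 in the stem cells and 0.61 in the Shh-CreER TACs. In the K15-CrePGR TACs limma called 0 of the 4 cofactors tested in either direction. At an unadjusted p under 0.05 it called 0 as well, against 17.4% of all loci. Pbx3 there was 5.06 and 7.67 FPKM in WT 52 and WT 57 and 8.61 and 8.16 in KO 64 and KO 84 (limma adjusted p = 0.445), and its groups did not overlap.

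Polycomb and trithorax complexes keep Hox clusters silent or active, and 23 of their genes were listed. All 23 passed the filter in the stem cells, with 0 at least 2-fold higher and 1 lower, the Polycomb reader Cbx7, at 25.1 FPKM in Het and 9.20 in cKO. Ezh2, the methyltransferase of Polycomb complex PRC2, was 10.8 and 20.6 FPKM, short of the mark. In the Shh-CreER TACs 0 of 23 were past the mark in either direction. The trithorax methyltransferase Mll1 was 5.23 FPKM in Het and 11.1 in cKO there, a log2 difference of 0.96, and Cbx7 was 8.05 and 14.3 FPKM. In the K15-CrePGR TACs limma called 0 of 22, and 2 at an unadjusted p under 0.05, against 17.4% of all loci. There the Polycomb gene Phc1 was 10.7 and 9.32 FPKM in WT and 4.67 and 3.46 in KO (log2 difference -1.13, limma adjusted p = 0.135). Cbx8 there was 18.6 FPKM in WT 52 and 108.1 in WT 57, and 91.6 and 80.3 in KO 64 and KO 84 (limma adjusted p = 0.594), so the KO values lay between the WT values. Of 12 genes flanking the 4 clusters, 7 passed the filter in each table and 0 were past the threshold of any of the 3 comparisons. In the K15-CrePGR TACs 1 of the 7 had an unadjusted limma p under 0.05, against 17.4% of all loci.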

How the data were processed

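RNA-seq of 8 libraries was used as 3 deposited tables, each normalised separately. The deposited values are FPKM with 1 column per library, per the file headers, made with TopHat and Cufflinks on mm9, per the submitters' processing notes (versions not given in the sources used here). Members and gene lists were chosen with earlier results of these data known.

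One entry per symbol, with the highest mean, was kept. Values were taken as log2(FPKM + 1). Genes whose mean reached 1 FPKM were compared. The K15-CrePGR groups were tested with limma 3.58.1 in R 4.3.3 (empirical Bayes with trend, two-sided, Benjamini-Hochberg over all loci tested, threshold 0.05), checked on simulated data. The stem cell and Shh-CreER pairs, with 1 library per group, have no test. Members with at least 1 FPKM in any library are described in full, except that some values are not reported here. Listed genes were named when past a threshold or among the 2 largest differences at a mean of at least 5 FPKM.

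Depth was not stated. It was estimated from the FPKM worth of 1 read at values under 0.3 FPKM, and estimated reads gave the 95% counting intervals. These assume the transcript length of GENCODE M21 and hold counting error only. The step was the same in 228 to 260 of 2433 to 2778 genes per library. In the K15-CrePGR table only relative depth was estimated, from 0.827 to 1.09 of WT 52, shared by few loci, so no intervals were made. Alternatives were pseudocounts of 0.1 and 5, no filter or 5 FPKM, median and quantile scaling, limma without trend, summed entries, and leaving out each K15-CrePGR library. Promoters came from RefSeq (GRCm38.p6). Plots used Python 3.11.15.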

Additional observations from a re-analysis of the deposited data

Results flagged for a closer look

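Hoxd4 differed in opposite directions in the 2 single-library pairs, with a log2 difference of -1.46 in the stem cells and 0.52 in the Shh-CreER TACs. The difference between the pairs was not tested.

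In the K15-CrePGR table, some comma-joined loci left out of the comparisons were flagged because both KO values lay above both WT values. Of all loci tested, 26.8% had that order. Joined loci with the opposite order are given under other observations. The locus that joins Gm20398, Hoxc10, Hoxc5 and Hoxc6 was 6.83 and 7.97 FPKM in WT 52 and WT 57 and 11.8 and 11.1 in KO 64 and KO 84, so both KO values lay above both WT values. The locus that joins Gm20440, Hoxd10 and Hoxd11 was 0.0775 and 0.0786 FPKM in WT and 0.242 and 0.208 in KO, all far under the filter of 1 FPKM.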

How the results depend on the processing

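No member was called in the K15-CrePGR TACs under any alternative run. Counts over all genes moved more. In the stem cells (722 higher, 562 lower), a pseudocount of 5 gave 302 and 278 genes, with 0 members higher and 1 lower (1 and 3 in the report), and a filter of 5 FPKM gave 436 genes and 0 members higher. The log2 ratio of the summed central genes was -0.24, and -0.28 under median scaling. In the Shh-CreER TACs (328 higher, 340 lower), a pseudocount of 0.1 gave 527 higher, a pseudocount of 5 gave 119 and 173 with 0 members higher (2 in the report), and a filter of 5 FPKM gave 198 and 0 members. Quantile normalisation left 1 member higher. In the K15-CrePGR table (5 higher, 4 lower), a pseudocount of 0.1 gave 13 and 8, a pseudocount of 5 gave 3 higher, no filter gave 20 and 22, a filter of 5 FPKM gave 9 higher and limma without trend gave 3 higher. Leaving out each library in turn gave 0 to 18 higher and 0 to 7 lower, with 0 in both directions without WT 52 and without WT 57, 8 and 7 without KO 64, and 18 and 5 without KO 84, where the lone sample was assumed to vary like the others. Hoxb2 turned from -0.66 to 0.17 without WT 52 (limma adjusted p = 0.937, range over its alternatives 0.519 to 1), and was -1.50 without WT 57. The cause of these moves was not tested. Over single members, 112 values in the stem cells and 109 in the Shh-CreER TACs kept their side of the threshold. In the K15-CrePGR TACs, 95 kept both their side and their direction. The 109 include Hoxb2, whose direction flipped under median scaling. Another 3 and 3 fell below the 2-fold mark in the first 2 tables, and Hoxc4 passed it in the Shh-CreER TACs at a pseudocount of 0.1 (1.09). No paired analysis was possible because the groups compared share fewer than 2 replicate numbers. Estimated depth limits members with few reads, such as Hoxc11 and Hoxc12.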

Other observations

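Among the other joined Hox loci in the K15-CrePGR table, 4 had both KO values below both WT values, as did 27.5% of all loci tested. The locus joining Hoxa5 and Hoxa6 was 9.55 and 6.09 FPKM in WT 52 and WT 57 and 5.93 and 2.52 in KO 64 and KO 84. The locus joining Hoxb7 and Hoxb8 was 51.8 and 48.2 FPKM in WT and 41.4 and 22.7 in KO. Hoxb4, joined to the microRNA gene Mir10a, was 7.03 and 5.14 FPKM in WT and 3.58 and 3.10 in KO. The locus joining Hoxd3 and Hoxd4 was 4.75 and 5.49 FPKM in WT and 3.18 and 4.62 in KO. No test was made. In the other 3 joined loci the groups overlapped. The locus of Gm53 and Hoxb9 was 19.6 and 5.17 FPKM in WT and 5.62 and 1.30 in KO. The locus of 9930038K12Rik and Hoxa9 was 2.01 and 3.22 FPKM in WT and 4.20 and 1.42 in KO, and that joining Hoxa2 and Hoxa3 was 2.65 and 2.78 in WT and 3.13 and 1.23 in KO.

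The antisense transcript Hoxb3os was 23.4 and 34.3 FPKM in WT and 13.3 and 23.3 in KO, and Hoxa11as was listed at 0 in all 4 libraries.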
